A study of Mus musculus with 6 samples.

Results

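The 10 genes described here encode early transcription factors of the oocyte (Figla, Nobox, Sohlh1, Sohlh2 and Lhx8), proteins of the zona pellucida (Zp1, Zp2 and Zp3) and growth factors secreted by the oocyte (Gdf9 and Bmp15). They were chosen by name, with earlier results of these data known. Each was read from the probe set annotated to it and to no other gene, and every one had exactly 1 such probe set. They are 10 of 19937 genes measured. RNA came from gonads of mouse embryos at E13.5 (embryonic day), dissected free of the mesonephros, on a mixed background of C57BL6/J and 129, and was hybridised to 6 arrays. The first group, called the Sox9 mutant, had the genotype Sox9flox/flox; Sf1:creTr/+ and 3 arrays, each from a pool of 12 gonads (arrays 3, 4 and 6). The second was wild type (WT), also with 3 arrays, each from a pool of 6 gonads (arrays 1, 2 and 5). In the mutant a Cre recombinase driven by Sf1 (Nr5a1) sequences acts on floxed alleles of Sox9, whose product is needed for Sertoli cell differentiation. Sf1 is a gene of the somatic cells of the gonad, so germ cells, in which the oocyte genes act, are not the cells that this Cre addresses. Mutant and WT pools differed in size, Cre-only and floxed-only controls were not analysed here, and the labels give no embryo sex and no litters, so that p-values measure only the spread between these pools.

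As background, germ cells of the fetal ovary enter meiosis at about this stage, while those of the fetal testis, enclosed by Sertoli cells, do not and instead stop dividing. Primordial follicles, in which single oocytes are enclosed, form later. FIGLA, SOHLH1 and SOHLH2 are basic helix-loop-helix (bHLH) factors, which bind short sequences of the form CANNTG called E-boxes; FIGLA, paired with a ubiquitous bHLH partner, switches on the zona genes. SOHLH1, SOHLH2, LHX8 and NOBOX are needed for the oocytes of primordial follicles, and SOHLH1 and SOHLH2 also for the differentiation of spermatogonia. The question for these arrays was whether such genes were above background, and whether they were higher in the mutant gonad, where meiotic genes were.

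The upstream sequences of 4 members are shown so that sequences of the E-box form can be seen in Sohlh2, the single member that passed the test, its relative Sohlh1, Figla, and the zona gene Zp3. Each run is the 250 bases before the RefSeq gene start on build GRCm38.p6, 5′ to 3′ on the gene's strand, with every CANNTG in capitals.
Sohlh2, chr3:55181794-55182043, plus strand: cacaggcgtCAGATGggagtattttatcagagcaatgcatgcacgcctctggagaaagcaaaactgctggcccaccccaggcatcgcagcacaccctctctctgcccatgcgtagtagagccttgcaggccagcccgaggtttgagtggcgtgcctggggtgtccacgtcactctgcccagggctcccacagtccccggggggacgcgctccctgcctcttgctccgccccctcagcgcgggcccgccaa
Sohlh1, chr2:25847249-25847498, minus strand: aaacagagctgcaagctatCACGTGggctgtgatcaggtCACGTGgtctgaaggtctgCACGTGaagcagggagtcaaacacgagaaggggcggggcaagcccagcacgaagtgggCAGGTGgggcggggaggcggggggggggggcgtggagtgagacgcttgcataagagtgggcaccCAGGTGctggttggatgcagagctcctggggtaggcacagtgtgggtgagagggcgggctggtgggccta
Figla, chr6:86016941-86017190, plus strand: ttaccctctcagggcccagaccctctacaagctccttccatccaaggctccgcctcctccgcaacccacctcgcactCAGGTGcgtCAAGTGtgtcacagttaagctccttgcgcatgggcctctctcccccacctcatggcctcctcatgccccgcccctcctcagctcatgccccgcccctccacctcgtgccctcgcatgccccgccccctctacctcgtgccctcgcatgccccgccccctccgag
Zp3, chr5:135979855-135980104, plus strand: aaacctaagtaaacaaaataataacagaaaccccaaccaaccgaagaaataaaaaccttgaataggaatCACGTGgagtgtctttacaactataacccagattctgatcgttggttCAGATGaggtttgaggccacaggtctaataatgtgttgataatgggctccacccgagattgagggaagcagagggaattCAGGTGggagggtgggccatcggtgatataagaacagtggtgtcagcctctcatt
Of the 10 members, 7 had an entry in the RefSeq promoter table, and Zp1, Zp2 and Gdf9 are the other 3. A CANNTG was present in 66.2% of 32851 promoter windows of this length, with 1.16 per window on average, and it reads the same on both strands. The Sohlh1 window held 5, of which 3 were CACGTG, a form found in 6.02% of windows. The Zp3 window also held a CACGTG, which begins 181 bases before the start, among 3 E-boxes. Figla and Nobox had 2 each, Sohlh2 and Bmp15 had 1 each, and Lhx8 had 0. The homeobox motif TAATTA was found in the Bmp15 window, and in 4.84% of all windows. TAATTG, searched on both strands, was in none of the 7 windows, against 7.17% of all. These matches are letters in a window and say nothing of binding.

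Values are log2 RMA values (background-corrected, quantile-normalised probe set summaries), which ran from 2.45 to 14.49 in the whole table. Background was marked at 6.67 log2, which is where the upper 5% began among the 6-array means of 1204 probe sets for olfactory and vomeronasal receptors, genes of sensory neurons. Correlations between arrays were 0.984 to 0.992 within groups and 0.969 to 0.985 between them. Sox9 measured 7.63 ± 0.14 log2 in the mutant and 8.95 ± 0.22 in WT (SD, n = 3 each; limma adjusted p = 0.00124); as the floxed exons are not named in the labels, its probe set may lie outside them. Array WT 5 stood apart in liver genes, with Afp at 11.26 and Alb at 11.42 log2, against 5.60 to 6.60 for both genes on the 5 other arrays. Mutant 3 stood apart in Xist, the RNA of the inactive X chromosome, with 7.29 log2, against 4.97 to 5.48 on the other arrays. The Y-linked genes Eif2s3y, Kdm5d and Uty measured 9.59, 7.98 and 8.02 log2 on that array, against ranges of 9.65 to 9.73, 7.98 to 8.46 and 8.36 to 8.85 on the 2 other mutant arrays and of 9.56 to 9.77, 8.16 to 8.41 and 8.33 to 8.51 in WT. The part of Xist-expressing cells in any result was not tested. Mutant 4 stood apart from the other mutant arrays in Sertoli cell genes, with Amh at 8.91 log2 against 5.91 and 5.89 on mutants 3 and 6. Its part in any result was not tested either.

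Sohlh2 was the one gene of the 10 that passed the threshold, and it was higher in the mutant. It measured 9.72, 9.91 and 9.66 log2 on mutant arrays 3, 4 and 6, and 9.19, 8.90 and 9.29 on WT arrays 1, 2 and 5. Every mutant array was above every WT array, and all 6 lay far above the background mark, higher than at least 99.9% of the receptor probe sets of the same array. The difference was 0.64 ± 0.14 log2 (SE; limma adjusted p = 0.0272), a fold of 1.56 with a 95% interval of 1.26 to 1.93. Thus 1 of 10 members was higher and 0 were lower, where 2.64% of all genes were higher, 4.3% lower and 6.94% changed in either direction; at an unadjusted p under 0.05, 2 of 10 members were higher, Sohlh2 and Sohlh1, near the 21.7% of all genes that had such a p in either direction. The Sohlh2 call ended when any of 4 arrays was left out. Its adjusted p was 0.0805 without mutant 3, 0.0996 without mutant 4, 0.0882 without WT 1 and 0.0907 without WT 2, with differences of 0.53 to 0.67 log2. The call stood without WT 5 (0.72 log2, adjusted p = 0.0392) and without mutant 6 (0.69 log2, adjusted p = 0.0345). Without WT 5 and mutant 3 together the difference was 0.74 log2 and did not pass (adjusted p = 0.0944).

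Whether the germ cell share of the RNA moved as well bears on this value, since in a whole gonad more cells of a type and more RNA per cell cannot be told apart. Ddx4, a helicase of all germ cells at this stage, measured 11.09 ± 0.03 log2 in the mutant and 10.91 ± 0.04 in WT (SD, n = 3 each), and Dazl, a germ cell RNA-binding protein, 11.66 ± 0.03 and 11.35 ± 0.15. Neither passed (limma adjusted p = 0.409 and 0.184), although all mutant arrays were above all WT arrays for both. Of 11 measured general germ cell genes, 4 had all mutant arrays above all WT arrays and 4 all below, against 12.1% and 16.6% of all genes. The median difference of the 11 was 0.18 log2. Those above were Ddx4, Dazl, Kit (0.51 log2) and Tex101 (1.25). Those below were Dppa3 (-1.55 log2), Dnd1 (-0.83), Pou5f1 (-0.58) and Nanos3 (-0.55). Mael (0.69 log2), Tdrkh (0.30) and Ddx25 (0.10) overlapped between groups. Only Dppa3 and Dnd1 passed, and the others, Ddx4 and Dazl among them, were chosen after their values were seen. Limma adjusted p was 0.116 for Kit, 0.146 for Tex101, 0.129 for Pou5f1 and 0.088 for Nanos3. Taken relative to the mean of Ddx4 and Dazl on the same array, Sohlh2 was 0.40 log2 higher in the mutant. The groups did not overlap but were barely apart, with -1.73 log2 on mutant 6 against -1.75 on WT 5. An exact permutation test of the 0.40 log2 difference, chosen after the values were seen, gave p = 0.1 (two-sided), the smallest that 3 arrays against 3 allow. Zp1, a member close to the background mark, gave the same p in the opposite direction, 0.33 log2 lower in the mutant (difference -0.33, no overlap). The other 8 members had relative differences of -0.28 (Bmp15) to 0.06 log2 (Sohlh1), with p from 0.2 to 0.8.

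Sohlh1, the partner of Sohlh2 in germ cells, was also above background on every array but did not pass. It measured 7.36, 7.41 and 7.25 log2 on mutants 3, 4 and 6, and 7.01, 7.11 and 6.99 on WT 1, 2 and 5. The groups did not overlap, and the difference was 0.30 ± 0.11 log2 (SE; limma adjusted p = 0.164), with a 95% interval of 0.06 to 0.55. Relative to Ddx4 and Dazl the difference of Sohlh1 was 0.06 log2 (exact permutation test, two-sided, p = 0.5).

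Figla, whose product activates the zona genes, measured 6.79, 6.56 and 6.35 log2 on mutants 3, 4 and 6, against 6.26, 6.45 and 6.11 on WT 1, 2 and 5. The groups overlapped, both means lay below the background mark, and on no array did Figla exceed the 95th percentile of the receptor probe sets of that array. The difference was 0.29 ± 0.15 log2 (SE; limma adjusted p = 0.322), with a 95% interval of -0.04 to 0.62. Relative to receptor probe sets, Figla stood at percentiles 94.4, 93.3 and 90.4 on the mutant arrays and 92.8, 93.6 and 87.0 on the WT arrays.

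The homeobox factors were at background. Lhx8, a LIM homeobox factor, measured 6.52, 6.40 and 6.10 log2 on the mutant arrays and 6.35, 6.29 and 6.33 on the WT arrays, with overlap. Its difference of 0.02 log2 (limma adjusted p = 0.969) changed sign under both rescalings of the arrays, a further quantile normalisation and a common median (-0.05 and -0.01). Nobox, the newborn ovary homeobox factor, measured 5.74, 5.48 and 5.47 log2 in the mutant, against 5.43, 5.40 and 5.38 in WT. All 3 mutant values of Nobox were above all WT values, by as little as 0.04 log2, and its difference of 0.16 ± 0.12 log2 (SE) did not pass (adjusted p = 0.529).

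The secreted ligands of the transforming growth factor beta family, GDF9 and BMP15, which act from the oocyte on granulosa cells, did not pass either. Gdf9 measured 7.03, 6.81 and 6.60 log2 on mutants 3, 4 and 6, and 6.39, 6.90 and 6.61 on WT 1, 2 and 5. These values straddle the background mark and overlap, with a difference of 0.18 ± 0.16 log2 (SE; limma adjusted p = 0.626). Bmp15 measured 5.07, 4.94 and 5.18 log2 in the mutant and 4.96, 5.16 and 5.18 in WT, close to the middle of the receptor probe sets (percentiles 50.7 to 61.8). Its difference was -0.04 log2 (adjusted p = 0.910).

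None of the 3 zona genes, which encode the glycoproteins of the egg coat, passed in the limma fit, and 0 had an unadjusted p under 0.05. Over all genes 6.94% passed and 21.7% had such a p, so that 0 of 3 cannot be told from those shares. Zp1 measured 6.62, 6.55 and 6.59 log2 on the mutant arrays and 6.59, 6.67 and 6.76 on the WT arrays, just around the mark, with a difference of -0.09 ± 0.11 log2 (SE; adjusted p = 0.734). Zp2 measured 5.23, 5.27 and 5.18 log2 in the mutant, against 5.07, 5.05 and 5.11 in WT, without overlap, with a difference of 0.15 ± 0.10 log2 (adjusted p = 0.503). Zp3 measured 6.18, 6.01 and 5.66 log2 in the mutant and 5.83, 5.92 and 5.74 in WT, with a difference of 0.12 ± 0.15 log2 (adjusted p = 0.730). Their 95% intervals reach 1.11-fold higher for Zp1, 1.30-fold for Zp2 and 1.37-fold for Zp3, as measured on a scale that RMA compresses near background. In the plot of the values by array, Zp2, Zp3, Nobox, Lhx8 and Bmp15 lie under the dashed line. Zp1 lies close to that line and is above it on WT 5. The mutant arrays of Zp3 and Lhx8 were spread, with SDs of 0.27 and 0.22 log2.

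**Figure D1:**
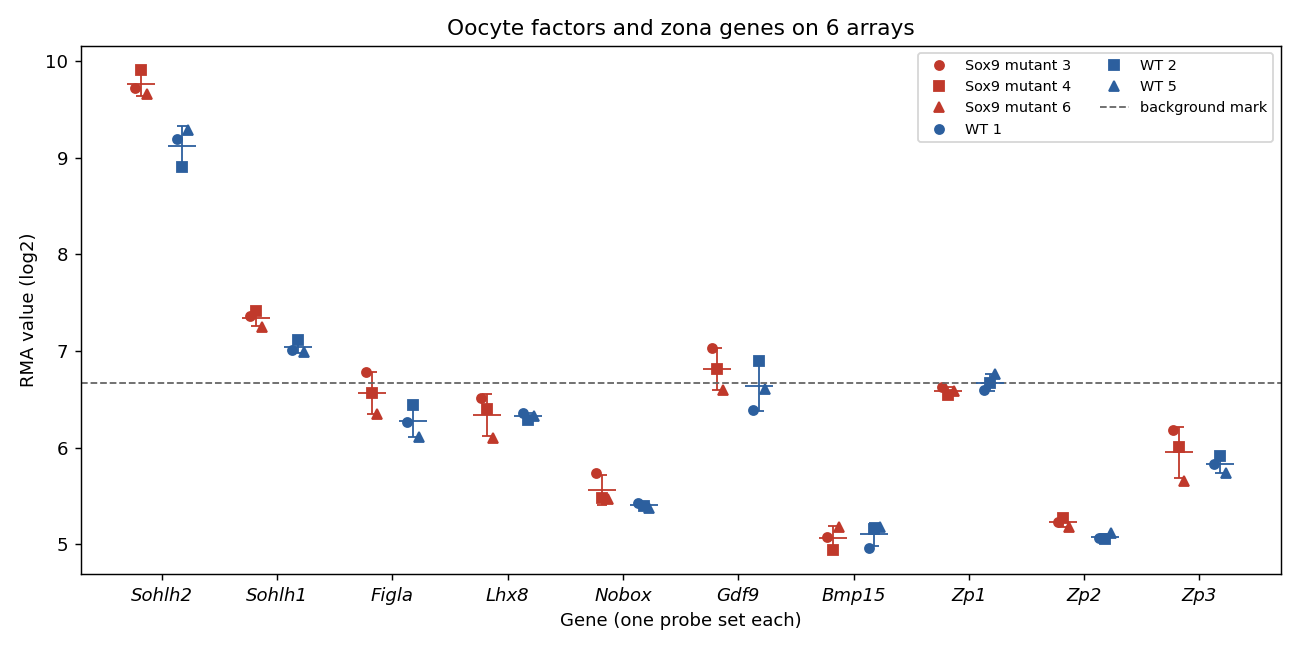
RMA value (log2, vertical axis) of the 10 genes on each array, Sox9 mutant arrays in red to the left of WT arrays in blue, with the mean and SD (n = 3 each) and the background mark of 6.67 log2 as a dashed line. Sohlh2, between 8.90 and 9.91, and Sohlh1, between 6.99 and 7.41, are the genes above the line on all 6 arrays; levels of different genes come from different probes and are not comparable with each other.

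Without mutant 3, the array with raised Xist, the differences of uncalled members were 0.29 (Sohlh1), 0.18 (Figla), 0.07 (Nobox), 0.07 (Gdf9), 0.01 (Zp3), 0.15 (Zp2), -0.07 (Lhx8), -0.04 (Bmp15) and -0.11 log2 (Zp1). Without WT 5 and mutant 3 together, that of Figla was 0.10 log2 (limma adjusted p = 0.818) and that of Sohlh1 0.27 (0.458), and without WT 5 alone they were 0.21 and 0.28. None of these 9 genes passed in any of the 3 fits.

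By group means, 3 of 10 members lay above the background mark in the mutant (Sohlh2, Sohlh1 and Gdf9) and 3 in WT (Sohlh2, Sohlh1 and Zp1), against 65.5% and 64.7% of all genes. Zp1 in WT exceeded the mark by under 0.01 log2, and Gdf9 in the mutant by 0.14. For 6 members both means were below it. With the mark taken anew from the arrays kept, the WT count was 2 without WT 5 and 4 without WT 1. The mutant count was 4 without mutant 6. The mark itself depends on the percentile, and at the 99th percentile Sohlh2 alone, 1 member, was above it in either group, while at the 90th 6 were in each.

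In 4 members (Sohlh2, Sohlh1, Nobox and Zp2) every mutant array was above every WT array, and in 0 every mutant array was below, against 12.1% and 16.6% of all genes. The receptor probe sets themselves were slightly higher in the mutant. Their 95th percentile was 6.84, 6.77 and 6.73 log2 on mutants 3, 4 and 6 and 6.50, 6.60 and 6.70 on WT 1, 2 and 5, and their median difference was 0.08 log2, against 0.00 over all genes. Of the receptor probe sets 9.39% had all mutant arrays above all WT arrays and 1.16% the reverse, and 3 of 1204 were called higher. The median difference of the 10 members was 0.15 log2. Those of Nobox, Zp2, Zp3 and Gdf9, from 0.12 to 0.18, fell within the middle 50% of the receptor differences, -0.02 to 0.19, and those of Figla and Sohlh1 lay below their 95th percentile of 0.36. The Sohlh2 difference exceeded it, as the plot of differences shows.

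**Figure D2:**
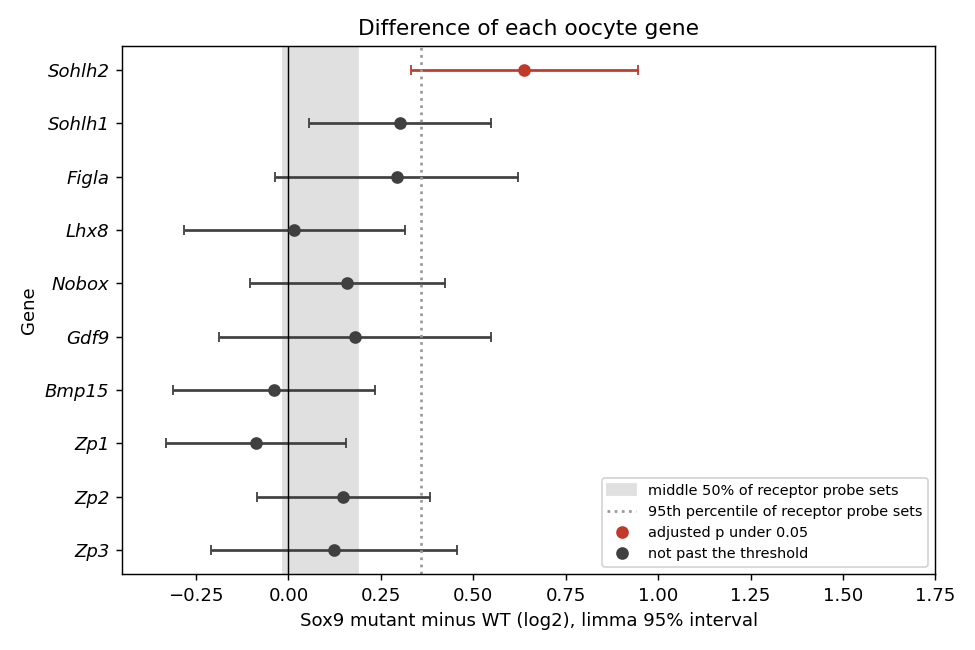
Sox9 mutant minus WT (log2, horizontal axis) with limma 95% intervals for the 10 genes; the grey band is the middle 50% of differences of 1204 receptor probe sets and the dotted line their 95th percentile of 0.36. Only the point of Sohlh2, at 0.64, lies to the right of the dotted line, and its interval, from 0.33, crosses that line.

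In the same arrays 12 of 24 measured genes of meiotic entry and prophase rose past the threshold and 0 fell, where 2.64% of all genes were higher and 4.3% lower. The median difference of the list was 1.13 log2. This list and those below were chosen with earlier results of these data known, so their counts are descriptive and no independent test. Meioc, which prolongs meiotic prophase, was higher by 4.11 ± 0.46 log2, Stra8, needed for meiotic entry, by 3.39 ± 0.28, M1ap by 2.78 ± 0.44 and Meiob, a meiotic recombination factor, by 2.65 ± 0.55 (SE; limma adjusted p = 0.00147, 0.000369, 0.00712 and 0.0237). The count of 12 was 10 without mutant 3, 9 without mutant 4, 16 without mutant 6, 7 without WT 1, 9 without WT 2 and 8 without WT 5. It was 5 without WT 5 and mutant 3 together, 4 without WT 5 and mutant 4 together, and 7 with trend and robust moderation. Against the WT mean, the meiotic list had a median of 2.22 log2 on mutant 3, 1.20 on mutant 4 and 0.64 on mutant 6, and 0.21, 0.02 and -0.26 on WT 1, 2 and 5. The medians of the 10 oocyte genes on the same arrays were 0.33, 0.18 and 0.07 log2 in the mutant and -0.01, 0.03 and -0.01 in WT. The order of mutant arrays 3, 4 and 6 was that of the meiotic list for Figla (0.51, 0.29 and 0.08 log2 above the WT mean), Gdf9, Lhx8, Nobox and Zp3, but not for Sohlh2, which was highest on mutant 4 (0.60, 0.78 and 0.54), nor for Sohlh1, Zp1, Zp2 and Bmp15. The receptor mark fell in that same order, and 3 arrays allow no test of it.

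**Figure D3:**
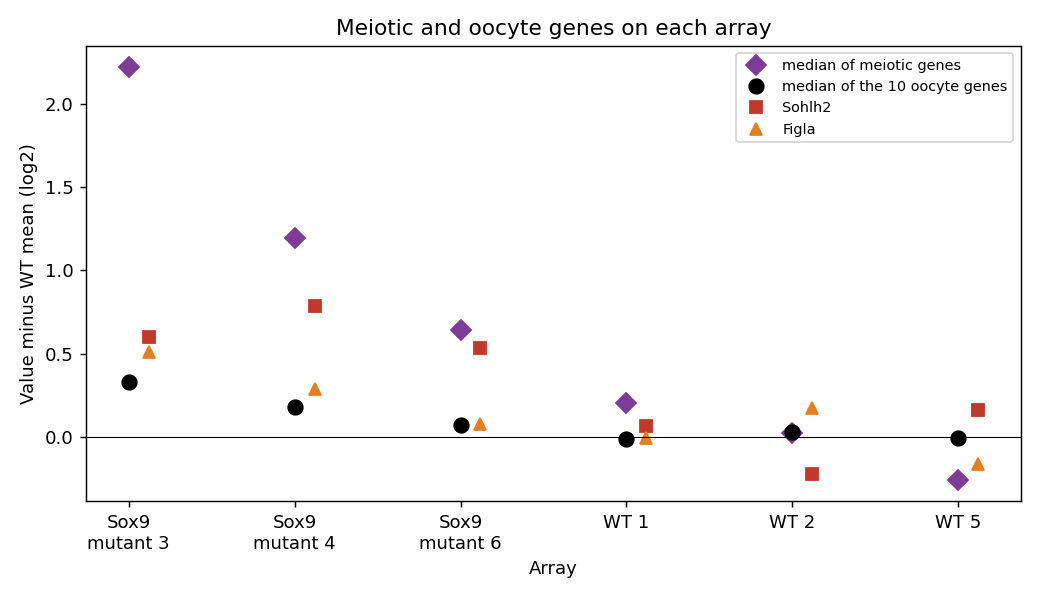
Value minus the WT mean (log2, vertical axis) on each of the 6 arrays for the median of 24 meiotic genes, the median of the 10 oocyte genes, Sohlh2 and Figla. The meiotic median stands at 2.22, 1.20 and 0.64 on mutants 3, 4 and 6, while the oocyte median stays at 0.33 or less and Sohlh2 at 0.54 to 0.78.

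A wider list of oocyte genes, mostly of growing oocytes, showed no common direction. Of 22 measured genes 1 rose and 1 fell, a called share of 9.09%, near the 6.94% of all genes. The median difference was 0.03 log2, and for 16 of the 22 both group means were below the background mark. Tle6, a protein of the maternal complex under the egg membrane, measured 8.14, 8.06 and 8.15 log2 in the mutant, against 7.51, 7.45 and 7.67 in WT, and was higher by 0.57 ± 0.11 (SE; limma adjusted p = 0.0192). Khdc3, another protein of that complex, measured 6.60, 6.76 and 6.54 log2 in the mutant, against 7.34, 7.03 and 7.34 in WT, and fell by 0.60 (adjusted p = 0.0283). The count of genes that rose was 0 without mutant 3, mutant 4, WT 1 or WT 2, and that of genes that fell was 0 without mutant 3, 4 or 6 or WT 1 or 5.

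Of 11 general germ cell genes 0 rose and 2 fell, Dppa3, a gene of undifferentiated germ cells, and Dnd1, which keeps germ cells alive, with differences of -1.55 ± 0.31 and -0.83 ± 0.20 log2 (SE; limma adjusted p = 0.0202 and 0.0430). The count of 2 was 0 without WT 1 or WT 2 and 1 without mutant 3, mutant 4 or WT 5, and 1 with a further quantile normalisation or with trend and robust moderation. Of 8 genes of male fetal germ cells 4 fell and 0 rose, with differences of -2.37 (Lefty2), -2.03 (Lefty1), -1.25 (Tdrd5) and -0.91 log2 (Nodal). That count was 1 without WT 1 and 2 without mutant 3. Among supporting cell genes, 8 of 8 pregranulosa markers rose (differences of 3.62 for Fst, 2.11 for Bmp2, 1.93 for Runx1 and 1.90 log2 for Irx3), as they did without any single array. Of 8 Sertoli markers 7 fell, with differences of -4.33 (Amh), -4.14 (Cst9), -3.51 (Hsd17b3) and -2.94 log2 (Aard), and 7 fell without any single array. The fall was not even among the mutant arrays, since mutant 4 was higher than mutants 3 and 6 in these named genes. Amh measured 8.91 log2 on mutant 4 against 5.91 and 5.89, and Cst9 7.91 against 5.84 and 5.50. Hsd17b3 measured 7.49 log2 against 5.30 and 5.19, and Aard 9.39 against 7.94 and 7.82. All these values were below those of every WT array. Over all genes 2.64% were higher and 4.3% lower. In the plot by gene list the median of the 10 oocyte genes, 0.15 log2, lies nearer 0 than those of the meiotic, male germ cell, pregranulosa and Sertoli lists. It is close to that of general germ cell genes (0.18), and other oocyte genes have 0.03. Both means were below the background mark, where RMA compresses differences, for 6 of the 10 members but only 3 of 24 meiotic genes. These lists were chosen with earlier results of these data known.

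**Figure D4:**
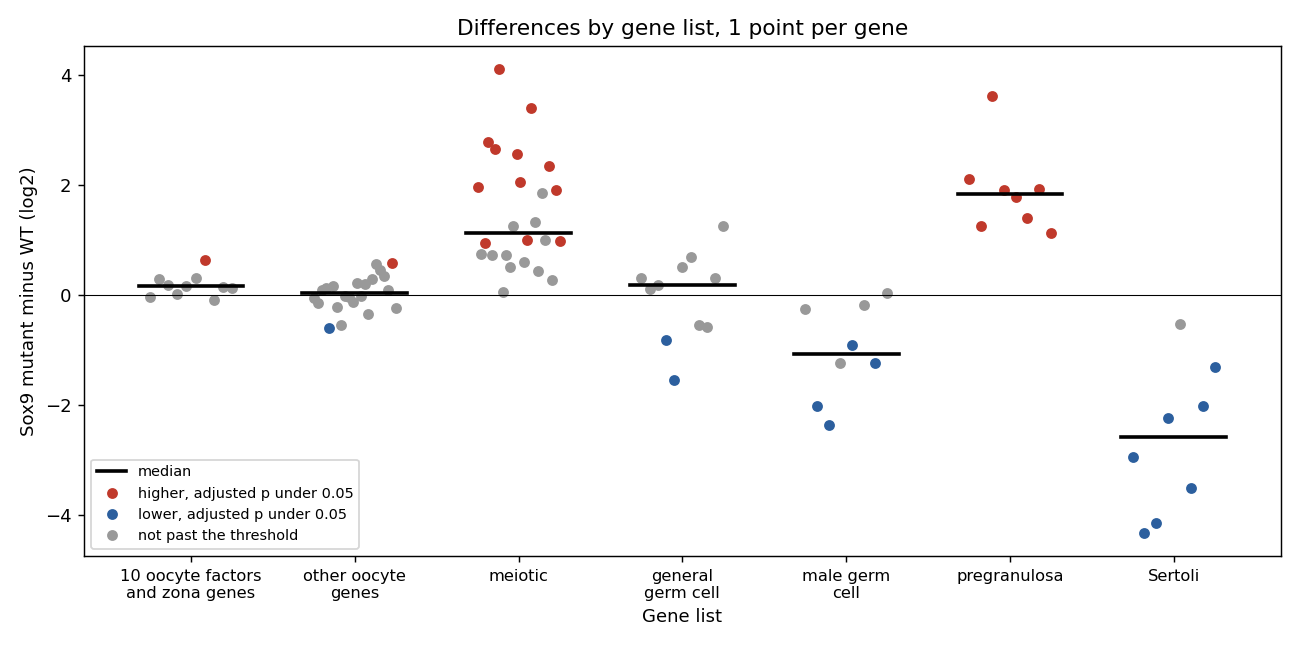
Sox9 mutant minus WT (log2, vertical axis) for each measured gene of 7 lists, with the list's median as a bar and genes past the threshold in colour. The 10 oocyte factors and zona genes span -0.09 to 0.64 with a median of 0.15, against a median of 1.13 for meiotic genes.

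Genes that work with the members were read from lists as well, and over all genes 2.64% were higher and 4.3% lower. Of 7 bHLH partners and inhibitory Id proteins 1 rose and 0 fell, Tcf12, an E protein that pairs with tissue-specific bHLH factors, which measured 11.02, 10.91 and 11.26 log2 in the mutant, against 10.35, 10.22 and 10.28 in WT (difference 0.79 ± 0.12; limma adjusted p = 0.00725). The call of Tcf12 ended without WT 5 and mutant 3 together. Tcf3, the E protein that is the known partner of FIGLA and was chosen after its values were seen, had a difference of -0.29 log2 and did not pass (adjusted p = 0.191). Of 10 receptors and mediators of GDF9 and BMP15 1 rose and 0 fell, the receptor gene Bmpr1b, which measured 7.08, 6.77 and 6.97 log2 in the mutant, against 6.02, 6.31 and 5.69 in WT, higher by 0.93 ± 0.17 (adjusted p = 0.0129). The Bmpr1b call ended without mutant 3 or WT 1, and its WT mean of 6.01 lay below the background mark. Of 10 genes of oocyte survival and primordial follicles, Sohlh1, Lhx8 and Nobox among them, 1 rose and 0 fell. It was Kitl, the ligand of the KIT receptor, made by supporting cells, with 11.03, 10.99 and 11.36 log2 in the mutant, against 9.51, 9.15 and 9.18 in WT (difference 1.85 ± 0.15; adjusted p = 0.000323).

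Likeness to the members across arrays was described by Pearson's r over the 6 arrays, among 13015 other genes with a mean above the background mark, and with no test, since both genotypes and all arrays are shared. Sohlh2 was most like Rhbdl3 (r = 0.996), Edn3 (0.983) and Slmap (0.983), and none of these passed the limma threshold (differences of 0.37, 0.45 and 0.23 log2). Sohlh1 was most like Cdk6 (0.995), Zhx3 (0.991) and AA414768 (0.990), of which Zhx3 and AA414768 rose, by 0.54 and 0.53 log2 (adjusted p = 0.0340 and 0.0398). The genes most like Zp1 were Celf5 (0.998), Mpo (0.980) and Icam2 (0.978), and those most like Gdf9 were Chrne (0.990), Gm12298 (0.980) and F930017D23Rik (0.963), with differences of -0.33 to 0.15 log2 and none past the threshold.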

How the data were processed

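RNA of 6 gonad pools, 300 ng per array per the labels' protocols, was biotin-labelled and hybridised to 1 array per pool. The deposited log2 values are RMA output, per the submitters' processing notes; which version and settings were used is not given in the sources used here. RMA equalises the arrays and compresses differences near background. Of 34760 rows, 6573 with identifiers below the lowest annotated one were left out as controls (18.9%). That left 28187 probe sets for testing. The annotation gave 1 gene for 21640 of them (21553 matched by Entrez identifier), several for 1321 and none for 5226; each gene was read from its probe set with the highest mean. The mutant was tested against WT in R 4.3.3 by limma 3.58.1 with moderated variances (two-sided). P-values were Benjamini-Hochberg adjusted over all probe sets tested, with a threshold of 0.05, and the fit was tested on simulated data. Precision is limited by the number of arrays. The members and gene lists were chosen with earlier results of these data known. Named genes were the members, the 4 largest called changes per list (or the 2 highest means), the sex-linked genes, Afp, Alb and the 3 genes most like each member above the mark. Alternatives covered scaling, filters, moderation, array weights, a hypothetical batch of arrays 5 and 6, left-out arrays, thresholds and background percentiles. Promoters came from RefSeq. Figures were drawn with matplotlib 3.10.9.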

Additional observations from a re-analysis of the deposited data

How the results depend on the processing

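No paired analysis was possible because the groups share no array number. The count of 1 oocyte gene called higher was 0 without WT 5 and mutant 4, without WT 5 and mutant 3 (an alternative chosen after seeing the data) and at a threshold of 0.01, and 0 to 1 with a single array left out; in each case Sohlh2 lost its call through an adjusted p above the threshold while its difference stayed between 0.53 and 0.74 log2. Rescaling, trend and robust moderation, array weights, the batch term (0.64 log2, adjusted p = 0.0206) and arrays 1 to 4 alone (0.77 log2, adjusted p = 0.0350) kept it. The count called lower was 0 throughout. The signs of 3 uncalled genes turned. Differences of Lhx8 were -0.0451 log2 with quantile normalisation, -0.0057 with a common median, -0.0134 without WT 5 and mutant 4, -0.0701 without WT 5 and mutant 3, and -0.0731 to 0.138 with a single array left out. Zp3 was -0.0381 without WT 5 and mutant 3, and Bmp15 was 0.0629 without WT 5 and mutant 4 and -0.1085 to 0.0235 with a single array left out; the cause was not tested. Members above background numbered 6 in the mutant and 6 in WT at the 90th receptor percentile, and 1 and 1 at the 99th. Near background, array signal limits what could be seen: small changes of Nobox, Bmp15 or the zona genes were not detectable here.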

Other observations

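Sry, the Y-linked gene that starts testis development, was higher in the mutant. It measured 8.05, 8.19 and 8.31 log2 on mutants 3, 4 and 6, against 7.35, 7.44 and 7.70 on WT 1, 2 and 5 (difference 0.69 ± 0.13, SE; limma adjusted p = 0.0181). Zfy1, also Y-linked, measured 6.02, 6.00 and 5.96 log2 in the mutant, against 5.57, 5.19 and 5.21 in WT, under the background mark throughout. Of 6 measured genes of the list of Y-linked genes and Xist 2 rose and 0 fell, where 2.64% of all genes were higher and 4.3% lower. The count that rose was 1 without mutant 3, WT 1 or WT 5 and 0 without mutant 4 or WT 2.

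Of 8 mesonephric markers 3 rose and 1 fell, where 2.64% of all genes were higher and 4.3% lower. The called differences were 1.61 (Emx2), 1.20 (Gata3), 0.57 (Wt1) and -0.96 log2 (Lhx1). The count that rose was 2 without mutant 3 or 4 or WT 2 or 5, and the fall of Lhx1 lost its call without mutant 3, WT 1 or WT 2. Emx2 and Wt1 are also expressed in the gonad itself. Of 7 liver genes 0 passed in the limma fit and 1 had an unadjusted p under 0.05, against 21.7% of all genes. Apoa2 measured 7.39 and 8.13 log2 and Apoa1 7.03 and 7.65 in mutant and WT, the WT means being raised by array 5. Ooep, of the same maternal complex as Tle6 and Khdc3 and chosen after its values were seen, measured 9.11, 9.07 and 8.79 log2 in the mutant and 9.52, 9.45 and 9.07 in WT, above the background mark on every array and without passing (adjusted p = 0.243).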
